A study of Arabidopsis thaliana with 6 samples.

Results

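Expansins and xyloglucan endotransglucosylase/hydrolases (XTH enzymes) are the 2 families of wall proteins examined here, in whole seedlings of Arabidopsis thaliana. The 43 genes were chosen by family, with no value of these data in the rule, but with earlier results of these data known. They are 14 alpha-expansins (EXPA), 2 beta-expansins (EXPB), 4 expansin-like genes (EXLA and EXLB) and 23 XTH genes. The choice does not hold the whole families, since 25 other expansin and XTH genes are outside it. The count files hold 32833 gene entries, of which 22738 had at least 1 count. All 43 were in the files, and the RefSeq annotation gives each name used here as a symbol or synonym.

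The study set plants labelled wt Col-0, a common reference accession, against plants labelled amiRNA-VQ1,10, whose artificial microRNA carries the names of the genes VQ1 and VQ10, with 3 libraries each, which the design text calls independent biological replicates. VQ genes code for small plant proteins that are known as partners of WRKY transcription factors. All seedlings, of both genotypes, grew for 14 days in normoxia (21% O2) on MS medium with 1% sucrose, with 16 h of light (150 µmol photons m-2 s-1) and 8 h of darkness a day, and were taken at ZT 4 h. The sources used here give neither the promoter of the artificial microRNA nor the number of independent lines or of seedlings per library.

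Plant cells are held by a wall in which cellulose fibrils are tied together by xyloglucan and embedded in pectin. Expansins loosen the contacts between wall polymers in acid conditions without cutting them, and XTH enzymes cut a xyloglucan chain and join it to another chain or, in some members, to water. Both families are known for their part in cell expansion, and many members respond to brassinosteroid, auxin, touch or shade.

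Counts came from 3′ RNA-seq, with 926209 to 1329817 counts over genes per library. The wild type libraries held 5, 1 and 2 counts of VQ1 and 1, 0 and 0 counts of VQ10, and the amiRNA-VQ1,10 libraries held none of either, so at this depth the counts say little about the knockdown. The labelled tissue was checked with marker lists. All 6 leaf markers and 8 of 10 root markers had enough counts for a test, and 1 of 6 root hair markers had, with the other root hair markers at 3 to 22 counts in wild type. The first principal component of all tested genes, with 26.9% of the variance, set amiRNA-VQ1,10 replicate 2 apart, the library with the lowest total. Values without that library are given beside many of the members it moved.

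The XTH family shows what its members share and how far their genes have drifted apart. A stretch of 27 bases codes for the active site of the enzyme, and it was found in 22 of the 23 XTH coding sequences. The pattern searched in the translated sequence was Glu, then Ile, Leu, Val or Met, then Asp, any residue, Glu, and Phe, Ile or Leu. No match was found in XTH9. The stretches of 6 members on which the results below turn are shown 5′ to 3′ on the coding strand, from the RefSeq annotation of TAIR10.1. Capitals mark the codons of the 3 acidic residues of the active site.
XTH4: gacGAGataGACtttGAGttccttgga
XTH6: gacGAGctaGATtttGAGttcttggga
XTH7: gacGAGcttGATtttGAGttcttagga
XTH16: gacGAGataGACtttGAGtttcttggt
XTH22: gacGAGataGATttcGAGtttttaggg
XTH24: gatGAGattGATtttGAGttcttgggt
The 22 stretches all differ from each other in their bases, while 16 of them, XTH4 included, code for the same residues. Against XTH4, XTH16 differs at 2 bases, XTH6 at 4, XTH7 at 5, and XTH22 and XTH24 at 6 each.

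How well a count can be assigned to a gene depends on such differences. Among the 253 pairs of XTH genes, XTH17 and XTH18 were the closest, with 92.2% identical bases in the aligned coding sequence, followed by XTH18 and XTH19 with 89.2%. Within the last 300 bases of the transcripts, from which 3′ reads mostly come, the longest run shared by any pair was 38 bases, in XTH17 and XTH18. Reads of XTH17, XTH18 and XTH19 could therefore be harder to assign, which was not tested. In the same window XTH18 and XTH19 shared a run of 22 bases, near the 20 bases of EXPA1 and EXPA10. Among the 190 pairs of expansins and expansin-like genes the closest were EXLA1 with EXLA2 and EXLA1 with EXLA3. The members lie on all 5 nuclear chromosomes, and 8 of them have another expansin or XTH gene as their next protein-coding neighbour, among them the row XTH24, XTH18 and XTH19 on chromosome 4 and the pair XTH22 and XTH25 on chromosome 5. An overlap with a gene on the opposite strand was found for 5 members (EXPA2, EXPA7, EXPA18, EXLA1 and XTH15), where counts could include reads of that gene since the strand setting is not known. None of these 5 was among the 30 that could be tested.

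Of the 43 members, 30 had enough counts for a test (14 expansins or expansin-like genes and 16 XTH genes), and 0 passed the threshold in either direction, an adjusted p under 0.05 over all 12701 tested genes in the quasi-likelihood test of edgeR. By the same rule 0.102% of all tested genes were called, 0.0236% higher and 0.0787% lower in amiRNA-VQ1,10. The smallest adjusted p of a member was 0.317, for XTH24. At an unadjusted p under 0.05 there were 7 members (23.3%), 6 of them higher and 1 lower in amiRNA-VQ1,10, against 6.02% of all tested genes, 3.04% higher and 2.98% lower. DESeq2 and limma-voom also called 0 of the 30 members, with 4 and 7 members at an unadjusted p under 0.05, against 1.76% and 5.98% of all genes in the same fits. Members had a median mean level of 65.1 CPM against 28.3 CPM for all tested genes, and the part of that difference in these counts was not tested. The median log2 fold change over the 30 members was 0.11 (0.06 to 0.19 over the same 30 with a library left out), against 0.0035 over all tested genes, and 21 of the 30 (70.0%) were above 0, against 50.7% of all tested genes. In whole seedlings a higher or lower level can come from a changed number of cells of a type or from changed RNA per cell. The 2 cannot be told apart.

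**Figure D1:**
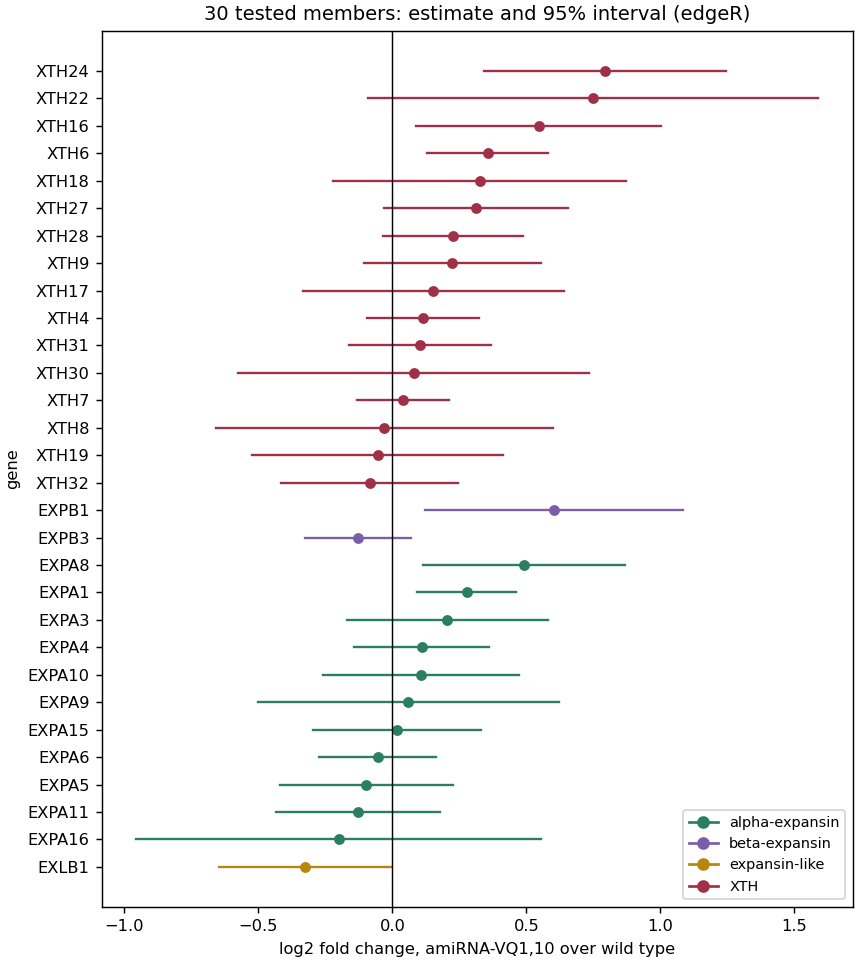
Log2 fold change of each of the 30 tested members, amiRNA-VQ1,10 over wild type (points), with its 95% interval (lines), coloured by family. The interval lies above 0 for XTH24, XTH6, XTH16, EXPA1, EXPA8 and EXPB1 and below 0 for EXLB1, before adjustment for the number of genes.

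The intervals say how large a difference the libraries allow. For 26 of the 30 members the 95% interval lay within a 2-fold change in either direction, against 88.1% of all tested genes, and for 17 it lay within a 1.5-fold change, against 47.4%. The intervals that reached beyond 2-fold were those of XTH22, XTH24, XTH16 and EXPB1, each on the higher side. They were narrowest for the 6 most abundant members. XTH7 had an interval of 0.913-fold to 1.16-fold, and EXPA6 one of 0.828-fold to 1.12-fold.

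Levels are in CPM, a gene's count scaled to a fixed library total, with TMM factors between libraries. As labelled, the counts come from transcript ends and should not grow with transcript length, so they are compared between genes as they stand. The transcripts of the 11 members described in full are 1117 to 1795 bases long. Over all 6 libraries 8 tested members had a mean above 100 CPM, 17 lay between 20 and 100 CPM and 5 below 20 CPM. XTH7 was the highest with 498 CPM, followed by EXPA1 with 458, EXPB3 with 274, XTH4 with 260, XTH6 with 189 and EXPA6 with 164 CPM. The levels of XTH7 and EXPA1 overlapped over the libraries, as did those of EXPB3 and XTH4, and of XTH6 and EXPA6, while the levels of EXPA1 and EXPB3 and of XTH4 and XTH6 did not.

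**Figure D2:**
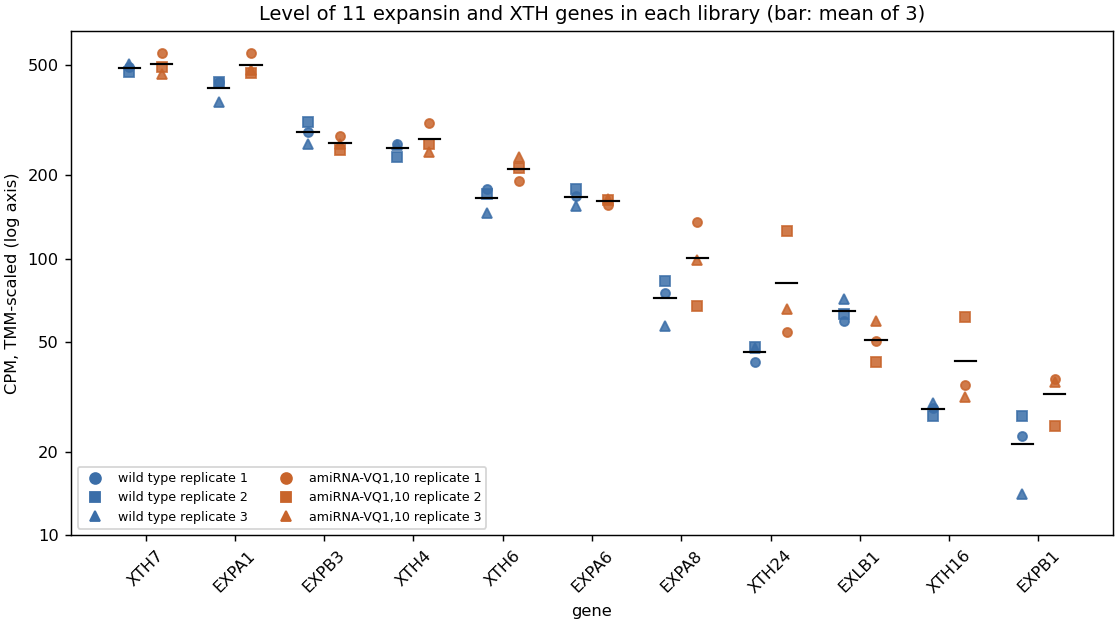
Level of 11 members in each of the 6 libraries, in TMM-scaled CPM on a log axis, with wild type in blue on the left and amiRNA-VQ1,10 in orange on the right of each gene, 1 symbol per replicate, and a bar at the mean of 3. For XTH24 and XTH16 the square of amiRNA-VQ1,10 replicate 2 stands far above the other libraries, with 126 and 61.7 CPM.

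Among the alpha-expansins EXPA1 and EXPA8 had the smallest p. EXPA1 (AT1G69530), known from the opening of stomata, stood at 437, 437 and 367 CPM in wild type and at 553, 471 and 481 CPM in amiRNA-VQ1,10. All 3 amiRNA-VQ1,10 libraries were above all wild type libraries. The means were 414 ± 40.3 and 502 ± 44.9 CPM (SD, n = 3 per genotype), and the log2 fold change was 0.28 ± 0.09 (SE, edgeR adjusted p = 0.475). Across the fits with a library left out the log2 fold change of EXPA1 was 0.20 to 0.32.

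EXPA8 (AT2G40610) read 75.4, 83.1 and 57.2 CPM in wild type and 136, 67.1 and 98.8 CPM in amiRNA-VQ1,10. Its groups overlapped, because amiRNA-VQ1,10 replicate 2 lay below 2 of the wild type libraries. The log2 fold change was 0.49 ± 0.18 (SE, edgeR adjusted p = 0.604), 0.69 when replicate 2 of the line was left out and 0.22 when its replicate 1 was. EXPA8 thus had its high value in replicate 1 of the line and a value within the wild type range in replicate 2.

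The other tested alpha-expansins lay closer to equality. EXPA6 (AT2G28950), the third most abundant expansin, stood at 169, 179 and 155 CPM in wild type and 157, 163 and 164 CPM in amiRNA-VQ1,10, all amiRNA-VQ1,10 values inside the wild type range, with a log2 fold change of -0.05 ± 0.11 (SE, edgeR adjusted p = 0.98). EXPA4 had a log2 fold change of 0.11, with amiRNA-VQ1,10 libraries at 96.3 to 106 CPM and wild type at 90.6 to 98.1 CPM. EXPA10, known for promoting the growth of leaves and petioles, varied within each genotype, from 62.9 to 109 CPM in wild type and from 67.9 to 111 CPM in amiRNA-VQ1,10. Its log2 fold change was 0.11, and -0.04 without replicate 2 of the line. EXPA5, which takes part in growth under brassinosteroid, ranged from 69.6 to 104 CPM in wild type and from 71.4 to 100 CPM in amiRNA-VQ1,10. The remaining 5 tested alpha-expansins, EXPA3, EXPA9, EXPA11, EXPA15 and EXPA16, had log2 fold changes of -0.20 to 0.21 and overlapping groups. Without replicate 2 of the line EXPA9 went from 0.06 to -0.24 and EXPA15 from 0.02 to -0.0037.

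Beta-expansins, best known from grasses where they loosen walls rich in xylan, are represented by EXPB1 and EXPB3. EXPB3 (AT4G28250) was the more abundant, at 287, 312 and 259 CPM in wild type and 278, 247 and 261 CPM in amiRNA-VQ1,10, with overlapping groups and a log2 fold change of -0.13 ± 0.10 (SE, edgeR adjusted p = 0.918). EXPB1 (AT2G20750) stood at 22.9, 26.95 and 14.1 CPM in wild type and 36.7, 24.9 and 35.8 CPM in amiRNA-VQ1,10. Here too the groups overlapped through amiRNA-VQ1,10 replicate 2. Its log2 fold change was 0.60 ± 0.23 (SE, edgeR adjusted p = 0.65), 0.39 without wild type replicate 3, which was its lowest library, and 0.36 with all libraries thinned to the lowest total.

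Expansin-like proteins share the structure of expansins, but wall loosening has not been established for them. EXLB1 (AT4G17030) was the only one of the 4 with enough counts for a test. It stood at 59.3, 62.9 and 71.3 CPM in wild type and 50.5, 42.2 and 59.6 CPM in amiRNA-VQ1,10. The groups met at 59.3 and 59.6 CPM, with 2 amiRNA-VQ1,10 libraries below all wild type libraries. The log2 fold change of EXLB1 was -0.33 ± 0.16 (SE, edgeR adjusted p = 0.812), and it was the one member on the lower side with an unadjusted p under 0.05. Its estimate was -0.22 without amiRNA-VQ1,10 replicate 2 and -0.47 without replicate 3 of the line.

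Of the 16 tested XTH genes 13 had a log2 fold change above 0 and 3 below, with a median of 0.19. The 14 tested expansins and expansin-like genes had 8 above 0 and 6 below, with a median of 0.04 that ran from -0.08 to 0.14 with a library left out. Without amiRNA-VQ1,10 replicate 1 the XTH median was 0.08, with 10 of 16 above 0. The XTH medians in the fits that left out another library were 0.12 to 0.24.

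XTH24 (AT4G30270), also named MERI5 and annotated as SEN4, a senescence gene, had the largest estimate of all members. It read 42.3, 47.9 and 47.6 CPM in wild type and 54.1, 126 and 65.6 CPM in amiRNA-VQ1,10. All amiRNA-VQ1,10 libraries were above all wild type libraries, and replicate 2 stood far above the others. The means were 45.9 ± 3.11 and 81.8 ± 38.4 CPM (SD, n = 3), so that the coefficient of variation was 6.78% in wild type and 46.9% in amiRNA-VQ1,10. The log2 fold change was 0.79 ± 0.22 (SE, edgeR adjusted p = 0.317), and without amiRNA-VQ1,10 replicate 2 it was 0.38 (edgeR adjusted p = 0.818). Over the alternatives the adjusted p of XTH24 ran from 3.7e-04, in the fit with no filter on low counts, to 1.00 by DESeq2.

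XTH6 (AT5G65730) gave a steadier picture. Its levels were 179, 171 and 146 CPM in wild type and 191, 212 and 232 CPM in amiRNA-VQ1,10, with no overlap between the groups. Means were 165 ± 17.1 and 212 ± 20.8 CPM (SD, n = 3), and the log2 fold change was 0.36 ± 0.11 (SE, edgeR adjusted p = 0.4). It stayed at 0.28 to 0.43 when any library was left out, and 0.36 without amiRNA-VQ1,10 replicate 2.

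XTH16 (AT3G23730) stood at 28.8, 26.95 and 29.9 CPM in wild type and 34.9, 61.7 and 31.5 CPM in amiRNA-VQ1,10. Its groups did not overlap, and again replicate 2 of the line was far above the other libraries. The log2 fold change was 0.55 ± 0.22 (SE, edgeR adjusted p = 0.684), and 0.22 without that replicate. XTH22, better known as TCH4 and induced by touch, had few counts, with 5.93, 8.23 and 12.3 CPM in wild type and 8.26, 28.1 and 10.2 CPM in amiRNA-VQ1,10. Apart from replicate 2 of the line all its values lay in the wild type range, and its log2 fold change went from 0.75 to 0.08 without that library. XTH27, known from the veins of rosette leaves, showed the same library at the top, with 104, 153 and 115 CPM in wild type and 134, 214 and 123 CPM in amiRNA-VQ1,10, and its log2 fold change went from 0.31 to 0.04 without it.

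The 2 most abundant XTH genes lay close to equality. XTH7 (AT4G37800) stood at 492, 475 and 506 CPM in wild type and 553, 494 and 467 CPM in amiRNA-VQ1,10, with the lowest and the highest library both in amiRNA-VQ1,10. Its log2 fold change was 0.04 ± 0.08 (SE, edgeR adjusted p = 0.984). XTH4 (AT2G06850), known from the growth of wood cells, read 259, 234 and 258 CPM in wild type and 308, 260 and 244 CPM in amiRNA-VQ1,10, with overlapping groups and a log2 fold change of 0.11 ± 0.10 (SE, edgeR adjusted p = 0.937).

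XTH28, known from the growth of stamen filaments, also had separate groups, with 76.2 to 92.5 CPM in wild type and 94.5 to 99.6 CPM in amiRNA-VQ1,10 and a log2 fold change of 0.23 ± 0.13 (SE, edgeR adjusted p = 0.859). XTH9, which like XTH4 acts in wood, had one of 0.22 with overlapping groups. XTH31 and XTH32 belong to a branch of the family known or predicted to hydrolyse xyloglucan. XTH31 had a log2 fold change of 0.10 with 128 to 158 CPM in wild type and 131 to 183 CPM in amiRNA-VQ1,10, and XTH32 had -0.08 with 53.9 to 66.9 and 45.5 to 64.7 CPM, and 0.02 without replicate 2 of the line. XTH8 and XTH30 had log2 fold changes of -0.03 and 0.08, with replicate 2 of the line highest for both, and -0.40 and -0.23 without that library.

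Members known from roots are XTH17, XTH18 and XTH19, the close relatives named above. Their log2 fold changes were 0.15, 0.33 and -0.06, with overlapping groups in each and no more than 28.4 CPM in any library. The 10 root markers, summed, ranged from 1112 to 1235 CPM in wild type and from 1125 to 1571 CPM in amiRNA-VQ1,10, with the highest sum in replicate 2. The bulk of that sum was PYK10, a beta-glucosidase of root cells (929 to 1047 and 991 to 1378 CPM), with a log2 fold change of 0.22, and 0.09 without that library. Of the 8 tested root markers 3 were above 0 and 5 below, with a median of -0.03, among them CASP1 at -0.33, MYB36 at -0.33 and SCR at -0.13. All 10 root markers had counts, 0 were called, and their part in the XTH values was not tested. The 6 leaf markers summed to 17335 to 17794 CPM in wild type and to 17882 to 19115 CPM in amiRNA-VQ1,10. Singly, 5 were above 0 and 1 below, none was called, and 3 had an unadjusted p under 0.05 (2 higher, 1 lower). The lower one, GLDP1, ranked first by p in this list, at -0.22 ± 0.09 (SE, edgeR adjusted p = 0.669). Its levels were 1157, 1339 and 1220 CPM in wild type and 1080, 889 and 1217 CPM in amiRNA-VQ1,10, with overlapping groups. Without replicate 2 of the line its estimate was -0.11.

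In all, 5 of the 30 tested members had separate groups, EXPA1, XTH6, XTH16, XTH24 and XTH28. That is 16.7% of them, against 10.4% of all tested genes. All 5 were higher in amiRNA-VQ1,10, where 5.28% of all tested genes had separate groups on that side. None had separate groups on the lower side, against 5.1% of all tested genes.

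The 13 members with too few counts for the main comparison had 0 to 53 counts over the 6 libraries. No count was found for EXPA2, known from germinating seeds, or for XTH33, an enzyme tied to the plasma membrane. A count of 0 in all libraries allows a level of up to 0.439 CPM, which covers counting error only. XTH25 had 1 count, in wild type replicate 3. EXLA3 had 5 counts in wild type and 3 in amiRNA-VQ1,10, and EXLA2 had 14 and 8.

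EXPA7 and EXPA18, both known from the outgrowth of root hairs, had 31 and 30 counts in wild type and 22 and 17 counts in amiRNA-VQ1,10. For EXPA18 this came to 8.26 CPM in wild type, with an exact Poisson 95% interval of 5.58 to 11.8, and to 5.30 CPM with an interval of 3.09 to 8.48 in amiRNA-VQ1,10, on library totals. The intervals overlapped, and both genes overlap a gene on the opposite strand. Of the root hair markers only PRP3 was tested, with a log2 fold change of -0.29 ± 0.25 (SE, edgeR adjusted p = 0.934). The 6 root hair markers, none without a count, summed to 24.7 to 42.3 CPM in wild type and 23.8 to 42.2 CPM in amiRNA-VQ1,10. Their part in the values of EXPA7 and EXPA18 was not tested.

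The other 5 sparse XTH genes are given as counts. XTH5 had 16, 5 and 5 counts in wild type and 12, 7 and 7 in amiRNA-VQ1,10, the same sum of 26. XTH23 had 4, 9 and 4 and then 2, 4 and 11 counts, a sum of 17 in each. XTH20, known from the healing of cut stems, had 9, 6 and 1 counts in wild type and 10, 5 and 0 in amiRNA-VQ1,10. XTH21, known from root growth, had a sum of 17 in wild type and 20 in amiRNA-VQ1,10. XTH15, a shade-induced gene also named XTR7, had 18 counts in wild type and 11 in amiRNA-VQ1,10. EXLA1 had 22 and 27. With no filter on low counts the 11 of these 13 members with any count were tested by edgeR, and 0 of them were called or had an unadjusted p under 0.05.

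Summed over their members, expansins took 0.139% to 0.165% of all gene counts in a library and XTH genes 0.157% to 0.189%. The 20 expansins and expansin-like genes summed to 1609, 1572 and 1378 CPM in wild type and to 1669, 1523 and 1630 CPM in amiRNA-VQ1,10. The groups overlapped, with wild type replicate 3 the lowest. The 23 XTH genes summed to 1621, 1565 and 1577 CPM in wild type and to 1849, 1898 and 1648 CPM in amiRNA-VQ1,10, where all 3 libraries were above all wild type libraries. The ratio of the means was 0.08 on the log2 scale for expansins and 0.18 for XTH genes. No test is given for these sums, and the sum of the leaf markers given above also had separate groups. EXPA1 made up 29.3% of the expansin sum and XTH7 made up 29.4% of the XTH sum, and the 4 highest genes made up 63.5% and 64.5%.

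**Figure D3:**
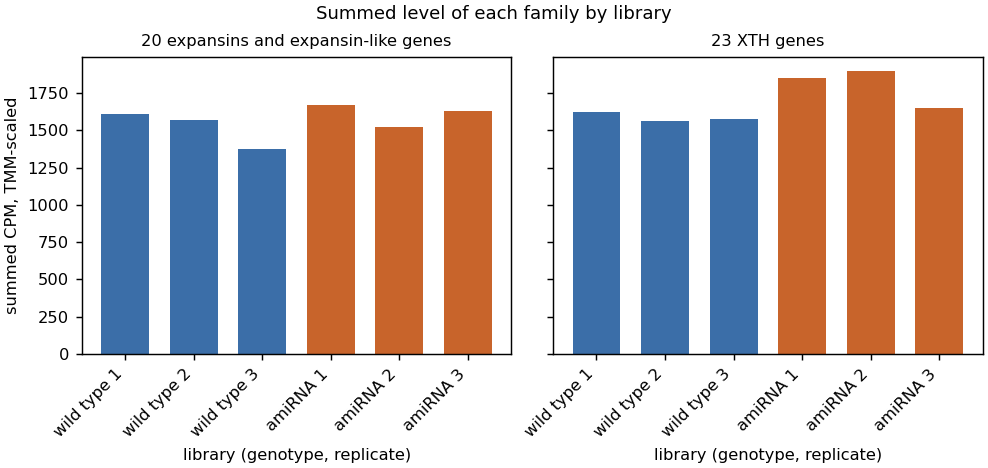
Summed level of the 20 expansins and expansin-like genes (left) and of the 23 XTH genes (right) in each library, in TMM-scaled CPM, with wild type in blue and amiRNA-VQ1,10 in orange. The XTH sum was 1565 to 1621 CPM in wild type and 1648 to 1898 CPM in amiRNA-VQ1,10, while the expansin sums of the genotypes overlapped.

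The members did not move together across the amiRNA-VQ1,10 libraries. Of the 30 tested members 10 were highest in amiRNA-VQ1,10 replicate 1, 8 in replicate 2 and 5 in replicate 3, and 7 in a wild type library. Of all tested genes 17.6%, 20.4% and 16.1% were highest in the same 3 libraries, so that the counts for replicates 2 and 3 lie near the background. In replicate 1 the leading genes were EXPA1, EXPA3, EXPA8, EXPB1, XTH4, XTH7, XTH9, XTH17, XTH19 and XTH31. In replicate 2 they were EXPA9, EXPA10, XTH8, XTH16, XTH22, XTH24, XTH27 and XTH30. Replicate 2 was at the same time the lowest library for EXLB1, EXPA11, EXPB3, XTH17 and XTH32. Replicate 1 was the lowest library for 0 members, against 17.3% of all tested genes. Without replicate 1 the log2 fold change of XTH9 went from 0.22 to 0.03 and that of XTH4 from 0.11 to 0.0078. EXPA3 went from 0.21 to 0.0053, XTH31 from 0.10 to -0.06 and XTH17 from 0.15 to -0.05. EXPA1 went from 0.28 to 0.20 and EXPB1 from 0.60 to 0.51. The median coefficient of variation of the 16 XTH genes was 10.5% in wild type and 24.4% in amiRNA-VQ1,10, where all tested genes had 13.7% and 15.5%.

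**Figure D4:**
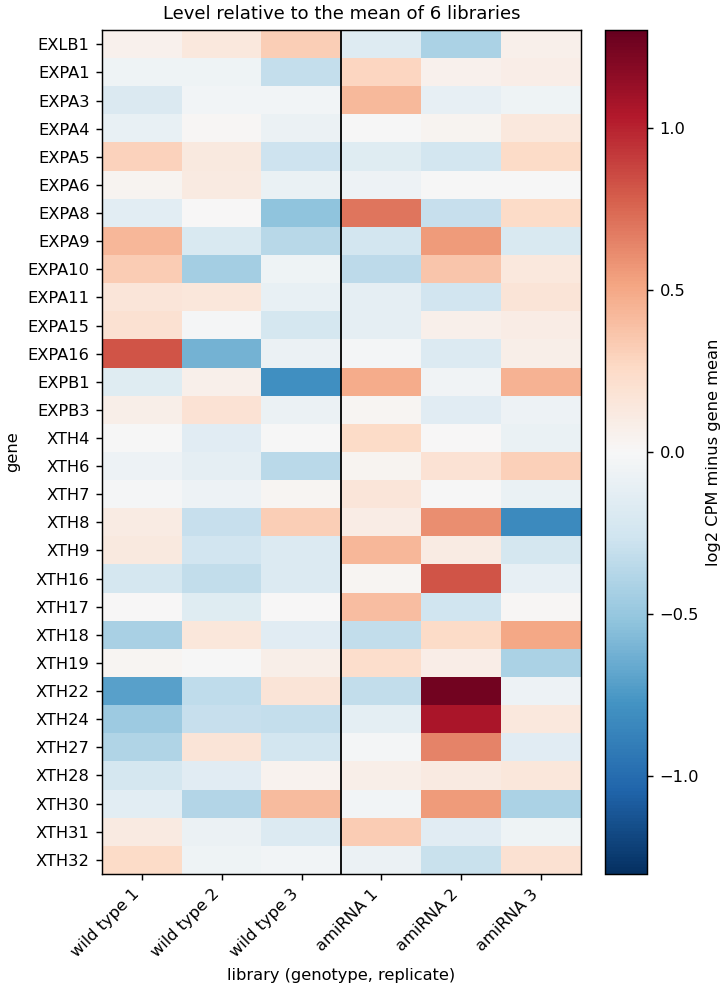
Level of each of the 30 tested members in each library as log2 CPM minus the mean of that gene over the 6 libraries, with red above and blue below the mean and a line between wild type (left) and amiRNA-VQ1,10 (right, written amiRNA). The darkest red cells are XTH22 and XTH24 in amiRNA-VQ1,10 replicate 2, at 1.25 and 1.06.

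Genes of the response to darkness and low sugar had their highest mean level in replicate 2 of the line too. Their mean score, the log2 CPM of the 9 tested list genes less each gene's mean over the libraries, was 0.73 in amiRNA-VQ1,10 replicate 2, 0.05 and 0.27 in replicates 1 and 3, and -0.58 to -0.11 in wild type. SEN1, a gene induced in the dark with a log2 fold change of 1.88 (1.18 without replicate 2 of the line), stood at 5.08, 11.2 and 7.05 CPM in wild type and 12.8, 56.3 and 22.99 CPM in amiRNA-VQ1,10, the same order of libraries within the line as XTH24. All 9 were above 0 and 6 had an unadjusted p under 0.05, but none was called (smallest edgeR adjusted p = 0.0997, SEN1). TCH3, a calmodulin-like gene induced by touch, had 19.5, 12.7 and 23.8 CPM in wild type and 19.3, 40.1 and 38.3 CPM in amiRNA-VQ1,10 (edgeR adjusted p = 0.481), while TCH1 and TCH2 had log2 fold changes of 0.01 and 0.02. The part of these responses in the XTH values was not tested.

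Other genes that build or alter the wall had no call either. Of 11 tested genes for the synthesis and trimming of xyloglucan, the substrate of XTH enzymes, 3 were above 0 and 8 below, with a median log2 fold change of -0.04. XXT1, a xylosyltransferase, had the smallest p among them, with 0.58 ± 0.34 (SE, edgeR adjusted p = 0.859) and its highest value again in amiRNA-VQ1,10 replicate 2, without which it was 0.25. Of 12 tested genes of cellulose synthesis 9 were above 0, with a median of 0.08, led by CSI1, which links cellulose synthase to microtubules (0.25 ± 0.14, adjusted p = 0.859 by edgeR). Of 9 tested pectin genes 3 were above 0, with a median of -0.10, and QUA1 had the smallest p with 0.18 ± 0.13 (edgeR adjusted p = 0.918).

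Brassinosteroid raises the transcripts of many expansins and XTH genes. Of 11 tested genes of its synthesis and signalling 9 were above 0 and none was called, with a median of 0.11. CPD, a synthesis enzyme that the hormone itself represses, had the smallest p, at 69.4, 57.6 and 56.4 CPM in wild type and 76.1, 62.8 and 74.9 CPM in amiRNA-VQ1,10, with overlapping groups (edgeR adjusted p = 0.88). Of the 25 expansin and XTH genes outside the 43, 13 had no count in any library and EXPA13 was the only one tested, with a log2 fold change of 0.23 ± 0.32 (SE, edgeR adjusted p = 0.976).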

How the data were processed

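Whole-seedling 3′ RNA-seq libraries, 3 per genotype, were analysed from the raw counts per gene that the authors deposited, 1 file per library, with no normalization. TAIR10 is the build named in the submitters' processing notes, which also list the tools DESeq2, HISAT2 2.0.4 and STAR without saying what each did. The sources used here do not give the counting program, its strand setting or any collapsing of the 6 bp molecular identifiers. The Poisson intervals and the floors therefore cover counting error only, while the edgeR intervals also include the spread between replicates. File rows for reads outside genes (3.79% to 4.07% of entries), in more than 1 gene (0.103% to 0.109%) or with more than 1 alignment (4.40% to 5.45%) were not used. Totals over genes were 926209 to 1329817 counts per library.

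Genes were filtered with filterByExpr (minimum count 10, minimum total 15), scaled by TMM and tested over all 12701 remaining genes with the quasi-likelihood test of edgeR 4.0.16 in R 4.3.3, with Benjamini-Hochberg adjustment and a threshold of 0.05. A positive log2 fold change means a higher level in amiRNA-VQ1,10. Its SE was taken as its size divided by the root of F, and 95% intervals use the t distribution. The test was checked on simulated data with no outlying library. There it called 34% of the tested genes changed 1.5-fold, 71.1% of those changed 2-fold and 95.9% of those changed 4-fold. Those data held 50 changed genes at each of 1.5-fold, 2-fold, 4-fold and 8-fold, and gave 148 calls, against 13 in the deposited data. Tested genes of a like level were simulated with a like spread. An adjusted p under 0.05 is easier to reach where many genes are called, so the shares in the deposited data could be lower. A true change of 1.5-fold or less could thus often go uncalled. Alternatives were DESeq2 1.42.0, limma-voom (limma 3.58.1), other scalings and filters, thinning, leaving out organelle genes, the replicate number as a block, and leaving out each library.

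Full values are given for members at an unadjusted p under 0.05, the 6 most abundant and the smallest p of each family. From each other list the gene with the smallest p is named with some of its values. XTH22, XTH27, XTH28 and other members with values by library were added after their values were seen. Members and lists were chosen with earlier results of these data known. From the pectin list 1 gene was left out because the annotation gives it no symbol. The RefSeq annotation of TAIR10.1 supplied coding sequences, overlaps and neighbours. No coordinates are given because the files' build is named TAIR10.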

Additional observations from a re-analysis of the deposited data

How the results depend on the processing

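No member was called in the main comparison or in any alternative except the fit with no filter on low counts, which called 1 member, XTH24 (adjusted p = 3.7e-04), and 92 genes in all against 13. All tested genes past the threshold numbered 6 by DESeq2, 6 with a strict filter of 50 counts in 3 libraries, 8 by limma-voom, and 10 to 37 with a library left out (37 when wild type replicate 2 was left out, 22 for replicate 3 of the line). Members at an unadjusted p under 0.05 numbered 4 by DESeq2, where 1.76% of all genes did, and 5 to 9 with a library left out, where 4.97% to 7.52% did. The median log2 fold change of the tested members was 0.15 with libraries thinned to the lowest total and 0.016 to 0.19 with a library left out, in fits that tested up to 33 members. Over the same 30 members it was 0.06 to 0.19. The ratio of summed levels was 0.01 to 0.12 for expansins and 0.14 to 0.24 for XTH genes on the log2 scale with a library left out. Of 174 values of the 11 members described in full, 172 kept their direction and side of the threshold. Beside XTH24, the log2 fold change of XTH7 ran from -0.033 without replicate 1 of the line to 0.094 with other libraries left out. Since all 11 were uncalled in the main comparison, the count of 172 says little about the size of an estimate. It includes XTH16, with 0.55 in the main comparison and 0.22 without amiRNA-VQ1,10 replicate 2. The causes were not tested.

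With the replicate number as a block 0 members and 16 genes in all were called, and 8 members had an unadjusted p under 0.05, against 5.68% of all genes. Same-numbered libraries did not deviate together (correlations of -0.03 to -0.01 over 3 pairs), and 0 of the 6 libraries correlated best with their own number, so the number was not taken as a pairing. EXPB1 and XTH16 had too few counts for the strict filter. Depth limits the 13 sparse members and widens the intervals of members below 20 CPM.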
